A study of Homo sapiens with 18 samples.

Results

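The oxygen-sensing machinery built around the hypoxia-inducible factors (HIF) and 33 further genes known to respond to low oxygen, none of them a glycolytic enzyme, were followed in ECV304 cells during 6 h of interleukin-1β (IL-1β) treatment, with or without the drug aminaphtone. The 40 genes were taken by name from the array table, keeping rows annotated to exactly 1 gene symbol and, where a gene had several such rows, the row with the highest mean. Of the 40, 37 had such a row among 28869 rows. EGLN2, CA9 and FUT11 were not matched in this way, so their signal was not analysed here. EGLN2 and CA9 do enter the promoter counts given below. RORA, with a mean log2 signal of 5.33, lay under the filter on dim rows (5.52), so 36 genes were among the 17853 rows tested.

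ECV304 is an established human cell line that the submitters describe as having both endothelial and epithelial traits. Each of the 18 samples was read on its own Affymetrix Human Gene 1.0 ST array, with 3 replicates in each of 6 groups. All 18 samples were confluent cells starved in 1% fetal bovine serum for 24 h and then given recombinant IL-1β at 100 IU/ml. The 3 control groups received IL-1β with medium and were collected after 1, 3 or 6 h. The 3 aminaphtone groups received IL-1β together with aminaphtone at 6 µg/ml and were collected at the same times. No group without IL-1β and no group under low oxygen is among the samples, so a change with time is a change within IL-1β treatment, and the effects of IL-1β and of time in culture cannot be told apart. Values are log2 signals, so a log2 difference of 1 is a 2-fold change. A gene was called in a comparison when its limma p-value, adjusted by Benjamini and Hochberg over the 17853 rows, was under 0.05. The labels number the replicates but do not say whether they came from separate cultures, so p-values reflect only how these samples vary, which may be technical.

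HIF is a transcription factor made of an oxygen-regulated α subunit (HIF1A or EPAS1) and a constant β subunit. When oxygen is present, the prolyl hydroxylases EGLN1, EGLN2 and EGLN3 mark the α subunit, VHL binds the marked protein and directs its degradation, and the asparaginyl hydroxylase HIF1AN blocks its transactivation domain. When oxygen is short, or when other signals stabilise the α subunit, HIF binds a short core motif in promoters and enhancers of genes for glycolysis, collagen modification, pH control, glycogen and lipid storage and growth control, and IL-1β is among the inflammatory signals known to act on the HIF1A protein. Arrays read RNA, so neither HIF protein levels nor its activity were measured.

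The core of the hypoxia response element (ACGTG or GCGTG, searched on both strands, overlapping matches counted) was counted in RefSeq promoter windows of 300 bases, from 250 before to 50 after a transcription start (GRCh38.p14). Of the 40 genes, 33 had a window, and 28 of these (84.8%) had a match in at least 1 window, against 14318 of 27305 genes in the table (52.4%). Counted by window, 37 of 45 windows of these genes (82.2%) and 48.4% of all 35116 windows held a match. VHL, JMJD6, ZNF395, HILPDA, NDRG1, RRAGD and FUT11 had no entry. The windows of P4HA1, P4HA2 and AK4, which rose in the controls between 3 and 6 h, and of DDIT4, which was lower with aminaphtone over the 3 times, are printed 5′ to 3′ on the gene's strand, with each motif match in capitals.
P4HA1: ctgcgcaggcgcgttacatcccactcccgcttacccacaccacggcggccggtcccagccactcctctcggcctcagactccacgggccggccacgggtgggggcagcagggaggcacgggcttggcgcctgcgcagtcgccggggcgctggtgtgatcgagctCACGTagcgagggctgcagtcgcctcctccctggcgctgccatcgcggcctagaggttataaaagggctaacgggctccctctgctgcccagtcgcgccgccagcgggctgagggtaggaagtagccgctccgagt
P4HA2: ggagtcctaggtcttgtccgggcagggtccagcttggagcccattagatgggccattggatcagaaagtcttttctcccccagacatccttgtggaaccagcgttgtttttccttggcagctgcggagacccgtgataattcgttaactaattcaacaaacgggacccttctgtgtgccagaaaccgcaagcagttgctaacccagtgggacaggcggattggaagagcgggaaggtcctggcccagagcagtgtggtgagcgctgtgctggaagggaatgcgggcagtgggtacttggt
AK4: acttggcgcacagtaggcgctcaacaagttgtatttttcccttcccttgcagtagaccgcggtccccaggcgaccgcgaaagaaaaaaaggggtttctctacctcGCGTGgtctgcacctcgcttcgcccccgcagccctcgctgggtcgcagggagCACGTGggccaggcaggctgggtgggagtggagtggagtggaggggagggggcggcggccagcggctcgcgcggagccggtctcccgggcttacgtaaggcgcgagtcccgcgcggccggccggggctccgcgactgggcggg
DDIT4: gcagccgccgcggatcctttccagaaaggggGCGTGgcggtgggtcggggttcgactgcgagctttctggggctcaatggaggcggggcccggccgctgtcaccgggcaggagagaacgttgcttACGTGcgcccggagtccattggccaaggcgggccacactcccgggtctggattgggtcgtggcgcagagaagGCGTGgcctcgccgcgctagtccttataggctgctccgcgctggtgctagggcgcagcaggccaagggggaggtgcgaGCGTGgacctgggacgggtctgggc
The P4HA1 window (chr10:73096817-73097116, minus strand) held 1 match, starting 86 bases before the transcription start, and the P4HA2 window (chr5:132227042-132227341, minus strand) held none. The AK4 window (chr1:65147302-65147601, plus strand), the first of 4 in the table, held 3 matches, of which a pair overlap on opposite strands as CACGTG. The DDIT4 window (chr10:72273674-72273973, plus strand) held 4 matches, 1 of them after the start. A match is a description of the letters in the window, and binding was not measured.

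The 1 h controls stood apart in their spread. Arrays of that group correlated with each other at 0.913 to 0.971 over the rows tested, while arrays within each of the other 5 groups correlated at 0.976 or higher. The median within-group range of the 36 genes was 0.61 in the 1 h controls and 0.20 to 0.34 in the other groups, and 21 of 36 genes had their widest group there. Replicate 2 of the 1 h controls was the lowest of all 18 arrays for 9 of the 36 genes and the highest for 9 others. Replicate 2 was not the only array to stand apart. The lowest correlation, 0.913, was between replicates 1 and 2, while replicate 3 correlated with them at 0.967 and 0.971. Leaving out replicate 1 raised the share of all rows called between the arms at 1 h from 0.084% to 48.2%. Counts of calls that use the 1 h controls are therefore also given without single arrays of that group. Of the markers checked, 10 of 10 epithelial or urothelial genes and 5 of 10 endothelial genes lay above the filter on dim rows, namely CDH5, VWF, TIE1, CLDN5 and ESAM, while PECAM1, TEK, KDR, EMCN and ERG did not. Of the fibroblast and leukocyte markers, 3 of 5 and 3 of 5 lay above it, while DCN, LUM, PTPRC and LYZ did not. Changes in the cells present and changes in RNA per cell cannot be told apart in these bulk samples.

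In the control cells, HIF1A and 14 other genes rose between 1 and 6 h and 9 fell. The rises included HILPDA, a lipid droplet protein (3.95-fold), PPP1R3C, a glycogen-targeting subunit of protein phosphatase 1 (3.48-fold), the collagen prolyl hydroxylase subunit P4HA1 (3.12-fold), and ERO1A, an oxidase of the endoplasmic reticulum (2.64-fold). The falls were led by CITED2, a competitor of HIF for its coactivators (2.97-fold). Over all rows tested, 10% were higher and 13.7% lower in this comparison, so the 15 of 36 genes called higher stand against a background of 10%, and the 9 called lower against 13.7%. The median log2 difference was 0.23 over the 36 genes and -0.01 over all rows. The mean log2 signal of the 10 epithelial markers was also lower in every 6 h control than in every 1 h control, at 8.35 to 8.61 in the 1 h controls and 8.17 to 8.23 in the 6 h controls, and its part in these results was not tested.

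The changes of the control cells fell in different intervals. Between 1 and 3 h, 3 genes rose (HIF1A, HILPDA and PPP1R3C; background 4.26%) and 4 fell (CITED2, BHLHE40, ZNF395 and NARF; background 7.07%). Between 3 and 6 h, 4 genes rose (P4HA1, P4HA2, HILPDA and AK4) and none fell, against 0.314% of all rows higher and 0.146% lower. HILPDA was called in both intervals. TMEM45A also passed between 1 and 3 h (adjusted p = 0.0323) when arrays of equal number were blocked together. That block spans all 6 groups. Equal numbers deviated together between the 1 and 3 h controls. They did not all do so between the 1 and 6 h controls (correlations of -0.415, 0.323 and -0.224). The arrays thus bear out only a part of the block behind this call. Without replicate 1 of the 1 h controls, 18 genes (50%) were called between 1 and 3 h in place of 7, while the share of all rows called rose from 11.3% to 31.9%. Without replicate 2 of the 3 h controls 11 were called, against 12.7% of all rows. Without replicate 2 of the 1 h controls 9 were called between 3 and 6 h in place of 4, against 1.71% of all rows. Between 1 and 6 h, 23, 18 and 17 genes were called without replicate 1, 2 or 3 of the 1 h controls in place of 24, against 40%, 18.3% and 18% of all rows, and 15 were without replicate 3 of the 6 h controls, against 14.5%.

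A fit of only the 6 arrays compared, which estimates the spread from those arrays alone, kept fewer of the control calls that use the 1 h group. Between 1 and 3 h CITED2 was called and the other 6 genes were not (adjusted p from 0.0691 to 0.208), with 1.24% of all rows called. Between 1 and 6 h 10 of the 24 genes were called, against 6.1% of all rows. The 14 lost were HIF1A, VHL, HIF1AN, PLOD1, PLOD2, ERO1A, KDM3A, MXI1, ZNF395, CA12, DDIT4, WSB1, FAM162A and ANKRD37 (adjusted p from 0.0623 to 0.185). Between 3 and 6 h the 4 calls were kept and KDM3A was added.

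**Figure D1:**
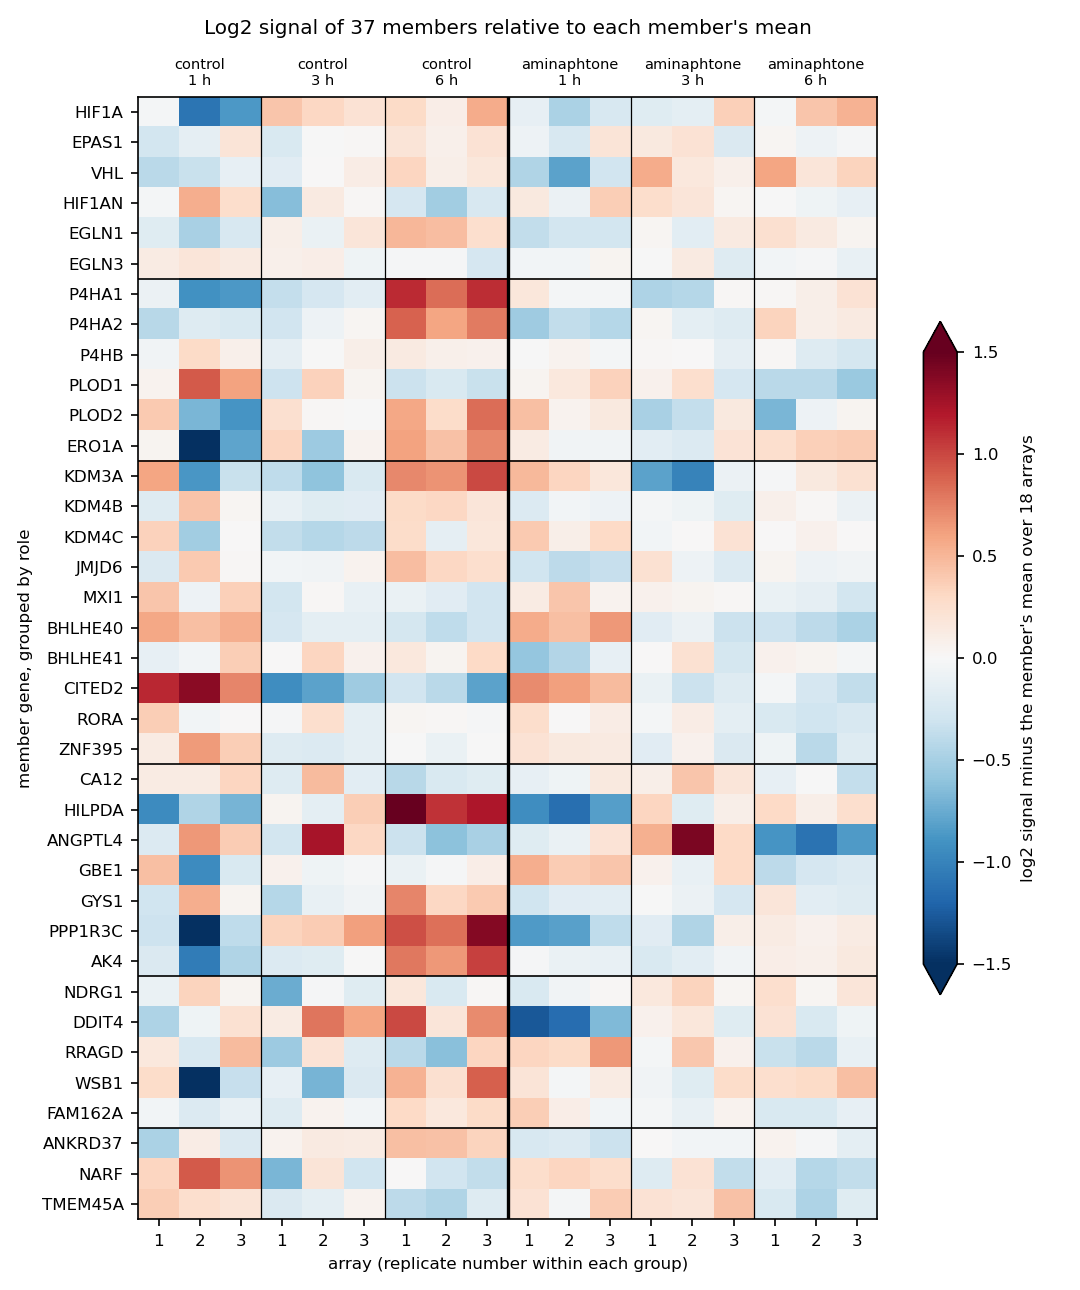
Log2 signal of the 37 genes with a row, each minus its own mean over the 18 arrays (colour scale, clipped at ±1.5), with 1 column per array grouped by treatment and time and genes grouped by role. P4HA1, P4HA2, HILPDA, PPP1R3C and AK4 are highest in the 3 control arrays at 6 h, and CITED2 is highest in the 3 control arrays at 1 h.

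In cells given aminaphtone, 12 of the 36 genes were called between 1 and 6 h, where the controls had 24. Of the 12, VHL, EGLN1, P4HA2, HILPDA, PPP1R3C and DDIT4 rose and PLOD1, BHLHE40, CITED2, ZNF395, GBE1 and TMEM45A fell, 6 in each direction against 5.49% of all rows higher and 9.86% lower. The median log2 difference was -0.01 over the 36 genes and 0.03 over all rows. Between 1 and 3 h, VHL, HILPDA and DDIT4 rose (background 4.51%) and KDM3A, BHLHE40 and CITED2 fell (background 4.92%). Between 3 and 6 h no gene rose (background 0.0224%) and ANGPTL4 fell (background 0.213%). Without replicate 1 of the 1 h aminaphtone arrays, or without replicate 2 of the 6 h aminaphtone arrays, 6 genes were called between 1 and 6 h in place of 12. The smaller count with aminaphtone depends on the fit. When only the 6 arrays compared were fitted, the counts between 1 and 6 h turned round, to 21 genes with aminaphtone (29.3% of all rows) and 10 in the controls (6.1%). Without replicate 1 or replicate 2 of the 1 h controls, 18 genes were called with aminaphtone. The counts with 1 array left out are given here without the share of all rows. They describe the fits and nothing particular to these genes.

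The arms shared 11 of their 1 to 6 h calls, all in the same direction, which is 45.8% of the 24 control calls and 91.7% of the 12 aminaphtone calls. Over all rows the calls shared in the same direction were 38.7% of the control calls and 59.7% of the aminaphtone calls. Of the 15 genes that rose in the controls, 6 were also called higher with aminaphtone, and 13 had a smaller difference there. Of all rows that rose in the controls, 31.3% were also called higher with aminaphtone and 84.3% had a smaller difference there. The medians of these 15 were 1.00 in the controls, on whose values they were picked, and 0.32 with aminaphtone, beside 0.73 and 0.36 over all rows picked in the same way. Of the 9 genes that fell in the controls, 5 were also called lower with aminaphtone, with medians of -0.62 and -0.48, and of all rows that fell in the controls 44.2% were. The test of whether the difference between arms changes with time is treatment by time, and it called none of these genes. It takes the 3 h and the 6 h difference between arms, each against that at 1 h, together in 1 test. The 1 to 6 h change alone was not tested between the arms.

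**Figure D2:**
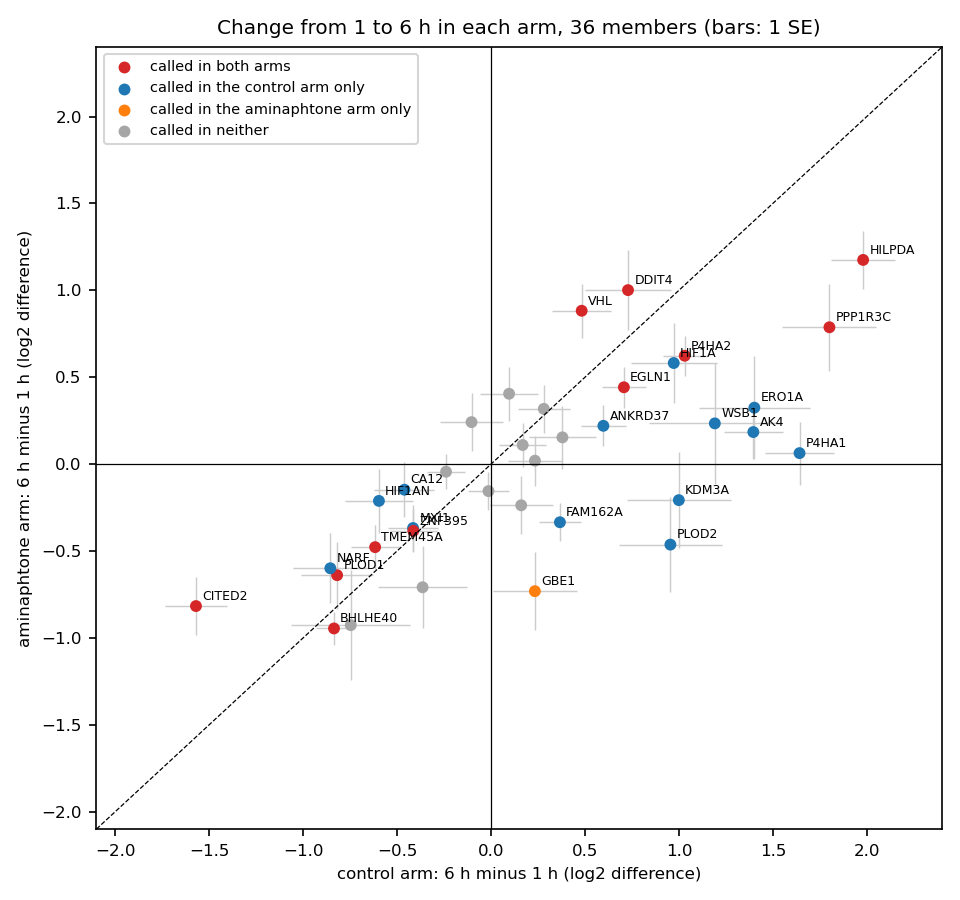
Log2 difference between 6 and 1 h in the control arm (x axis) and in the aminaphtone arm (y axis) for the 36 genes tested, with bars of 1 SE, coloured by the arm in which the gene was called, with the dashed line marking equal differences. P4HA1, AK4, ERO1A and PLOD2 lie below the dashed line, at 1.64, 1.40, 1.40 and 0.95 in the controls and 0.06, 0.18, 0.32 and -0.46 with aminaphtone, while VHL and DDIT4 lie above it.

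Aminaphtone was set against its control at each time to ask whether the drug altered these genes under IL-1β. HILPDA was lower with aminaphtone at 6 h, 2.09-fold (log2 -1.07, SE 0.17, adjusted p = 0.0198), and it was the only one of the 36 genes called there, against 0.101% of all rows. Over the mean of the 3 times, DDIT4, an inhibitor of mTORC1 signalling, was 1.61-fold lower (log2 -0.69, SE 0.13, adjusted p = 0.0241) and HILPDA 1.36-fold lower (log2 -0.45, SE 0.10, adjusted p = 0.0449), against 0.751% of all rows. No gene was called at 1 h (background 0.084%), at 3 h (background 0.028%) or in treatment by time (background 0.0336%). These calls depended on single arrays. The HILPDA call at 6 h was lost without replicate 1 or 3 of the 6 h controls or replicate 1, 2 or 3 of the 6 h aminaphtone arrays (adjusted p from 0.0916 to 0.172). Over the mean of times the DDIT4 call was lost in 8 of 18 fits that left out 1 array, with the highest adjusted p, 0.0695, without replicate 1 of the 1 h aminaphtone arrays. For HILPDA over the mean of times the call was lost in 15 of 18 fits that left out 1 array, with the highest adjusted p, 0.112, without replicate 1 of the 6 h controls. Without replicate 1 of the 1 h controls, 4 genes were called at 6 h (HILPDA, P4HA1, P4HA2 and AK4), against 0.218% of all rows, and 10 over the mean of times, against 19.1%.

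At 6 h the differences of the 36 genes lay to the lower side. All 3 aminaphtone arrays read below all 3 control arrays for 19 of the 36 genes (52.8%), against 7.06% of all rows tested, and above them for 1, HIF1AN (2.78%), against 8.17%. The median log2 difference was -0.23 over the 36 genes and -0.02 over all rows. At an unadjusted p under 0.05, 14 of 36 genes (38.9%) passed, all lower, against 3.87% of all rows. They were EGLN1, P4HA1, P4HA2, P4HB, PLOD2, KDM3A, JMJD6, HILPDA, GYS1, PPP1R3C, AK4, DDIT4, FAM162A and ANKRD37. Because the 6 h controls enter both this comparison and the rise of the controls with time, a high reading in those 3 arrays moves both. The mean log2 signal of the 10 epithelial markers was also lower with aminaphtone at 6 h in every array, at 8.17 to 8.23 in the controls and 8.11 to 8.12 with aminaphtone, and its part in these results was not tested.

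The earlier times gave another picture. At 1 h the median was -0.09 over the 36 genes and -0.10 over all rows, and 10 genes (27.8%) passed an unadjusted p under 0.05, against 28.9% of all rows. The groups did not overlap for 4 genes with aminaphtone below (EGLN3, JMJD6, CITED2 and DDIT4; 7.67% of all rows) and for 2 with aminaphtone above (P4HA1 and AK4; 5.31%). Treated and control arrays of equal number at 1 h deviated together, and with the replicate number as a block 7 genes were called: P4HA1, ERO1A, GBE1 and AK4 higher and BHLHE41, CITED2 and DDIT4 lower, with adjusted p from 0.0165 to 0.0483. Over the whole table the same block raised the calls from 15 to 2212. That fit also blocked the 3 h and 6 h arrays, whose equal numbers did not all deviate together, and took its spread from all times. Without replicate 1 of the 1 h controls and with no block, 18 genes (50%) were called at 1 h, against 48.2% of all rows, and 12 (33.3%) in treatment by time, against 16.2%.

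At 3 h the median was 0.02 over the 36 genes and -0.01 over all rows, and 6 genes (16.7%) passed an unadjusted p under 0.05, against 6.35%. The groups did not overlap for 2 genes with aminaphtone below (PPP1R3C and ANKRD37; 5.66% of all rows) and for 5 with aminaphtone above (KDM4C, MXI1, CITED2, NDRG1 and TMEM45A; 6.91%). Over the mean of times 9 genes (25%) passed an unadjusted p under 0.05, against 18.5% of all rows. In treatment by time 12 genes (33.3%) did, against 8.65%. The smallest of these was P4HA1 (unadjusted p = 4.67e-05, adjusted p = 0.11).

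**Figure D3:**
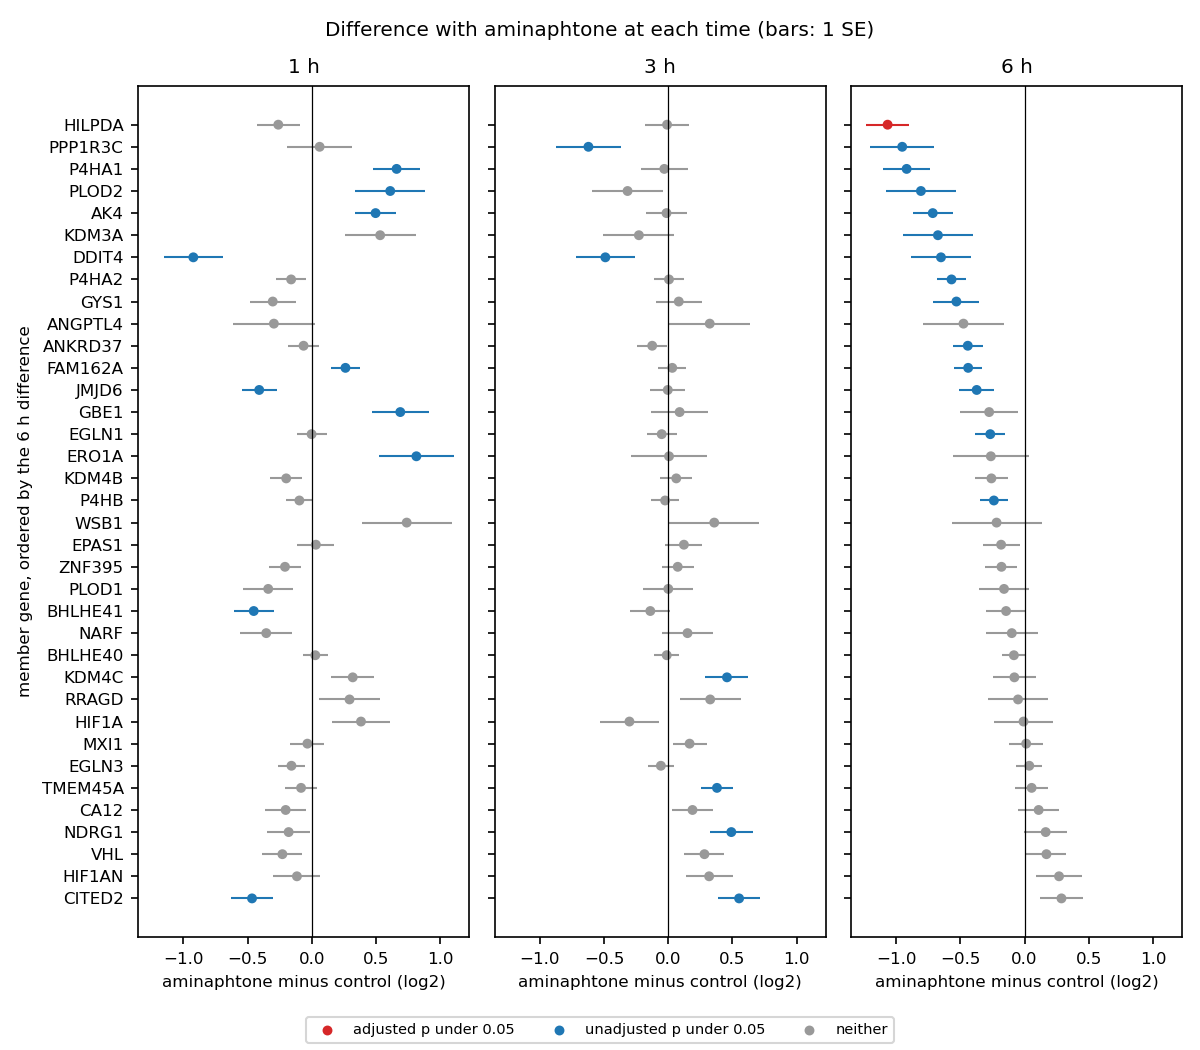
Log2 difference between aminaphtone and control (x axis, bars of 1 SE) at 1, 3 and 6 h for the 36 genes tested, ordered by the 6 h difference. At 6 h 28 of 36 points lie below 0, with HILPDA lowest at -1.07, whereas at 1 h P4HA1 and AK4 lie above 0.

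Among the oxygen sensors, the HIF α subunit HIF1A rose early in the control cells. HIF1A read 12.02, 10.95 and 11.19 at 1 h, 12.46, 12.35 and 12.26 at 3 h, and 12.33, 12.14 and 12.60 at 6 h in the control arrays. With aminaphtone HIF1A read 11.92, 11.57 and 11.81 at 1 h, 11.87, 11.89 and 12.41 at 3 h, and 12.02, 12.46 and 12.56 at 6 h. The 1 h controls reached as low as 10.95, below every other array, and no 3 h or 6 h control array read below 12.14. The difference in the controls was log2 0.97 (SE 0.23, adjusted p = 0.0107) between 1 and 3 h and log2 -0.0017 (SE 0.23, adjusted p = 0.999) between 3 and 6 h. With aminaphtone HIF1A differed by log2 0.58 (SE 0.23, adjusted p = 0.101) between 1 and 6 h and was not called, and at 6 h the arms differed by log2 -0.01 (SE 0.23, adjusted p = 1). The 1 to 3 h call was lost without replicate 3 of the 1 h controls or replicate 1 of the 3 h controls (adjusted p from 0.0513 to 0.0534). In the fit of only the arrays compared the pattern of calls turned round: HIF1A was called with aminaphtone between 1 and 6 h (adjusted p = 0.0128) and not in the controls between 1 and 3 h (adjusted p = 0.141) or 1 and 6 h (adjusted p = 0.0732). The aminaphtone difference was also called without replicate 1 of the 1 h controls (adjusted p = 0.0188). EPAS1, the other α subunit, was not called in any comparison. EPAS1 read 9.82, 9.96 and 10.29 at 1 h, 9.87, 10.09 and 10.11 at 3 h, and 10.29, 10.17 and 10.31 at 6 h in the control arrays. With aminaphtone EPAS1 read 10.02, 9.85 and 10.29 at 1 h, 10.24, 10.31 and 9.88 at 3 h, and 10.12, 10.03 and 10.08 at 6 h. All 18 arrays lay between 9.82 and 10.31, and the aminaphtone arrays at 6 h were below the controls, a difference of log2 -0.18 (SE 0.14, adjusted p = 1).

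VHL, the recognition subunit of the ligase that degrades HIF, rose in both arms between 1 and 6 h. VHL read 8.69, 8.76 and 8.97 at 1 h, 8.92, 9.09 and 9.20 at 3 h, and 9.42, 9.18 and 9.27 at 6 h in the control arrays. With aminaphtone VHL read 8.64, 8.29 and 8.80 at 1 h, 9.65, 9.25 and 9.17 at 3 h, and 9.68, 9.27 and 9.42 at 6 h. The 6 h arrays were above the 1 h arrays without overlap in each arm, by log2 0.48 (SE 0.16, adjusted p = 0.0328) in the controls and log2 0.88 (SE 0.16, adjusted p = 0.000935) with aminaphtone. The rise between 1 and 3 h was called with aminaphtone (log2 0.78, SE 0.16, adjusted p = 0.00398) and not in the controls (log2 0.27, SE 0.16, adjusted p = 0.313), and treatment by time gave an adjusted p of 0.595. In the controls the VHL call was lost without replicate 1 or 2 of the 1 h controls or replicate 1 or 3 of the 6 h controls (adjusted p from 0.0578 to 0.119).

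EGLN1, the main prolyl hydroxylase acting on HIF1A and itself a known HIF target, also rose in both arms. EGLN1 read 9.91, 9.61 and 9.85 at 1 h, 10.18, 9.99 and 10.27 at 3 h, and 10.59, 10.55 and 10.35 at 6 h in the control arrays. With aminaphtone EGLN1 read 9.73, 9.82 and 9.82 at 1 h, 10.13, 9.93 and 10.23 at 3 h, and 10.33, 10.23 and 10.13 at 6 h. The 3 time points did not overlap in the controls, with a difference of log2 0.71 (SE 0.12, adjusted p = 0.000504) between 1 and 6 h, and with aminaphtone the difference was log2 0.44 (SE 0.12, adjusted p = 0.0156), lost without replicate 1 of the 1 h aminaphtone arrays or replicate 1 or 2 of the 6 h aminaphtone arrays (adjusted p from 0.0509 to 0.0722). At 6 h the aminaphtone arrays were below the controls without overlap, a difference of log2 -0.27 (SE 0.12, adjusted p = 1), which is not called. EGLN3, the hydroxylase best known as hypoxia-inducible, was not called. EGLN3 read 6.68, 6.75 and 6.70 at 1 h, 6.63, 6.67 and 6.50 at 3 h, and 6.55, 6.55 and 6.31 at 6 h in the control arrays. With aminaphtone EGLN3 read 6.52, 6.53 and 6.61 at 1 h, 6.56, 6.70 and 6.37 at 3 h, and 6.52, 6.55 and 6.45 at 6 h. Its arrays spanned only 6.31 to 6.75.

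HIF1AN, the asparaginyl hydroxylase, fell in the controls between 1 and 6 h. HIF1AN read 7.78, 8.35 and 8.07 at 1 h, 7.17, 7.94 and 7.83 at 3 h, and 7.56, 7.28 and 7.57 at 6 h in the control arrays. With aminaphtone HIF1AN read 7.96, 7.72 and 8.18 at 1 h, 8.07, 7.99 and 7.83 at 3 h, and 7.80, 7.74 and 7.68 at 6 h. The control difference was log2 -0.60 (SE 0.18, adjusted p = 0.0254), and the aminaphtone difference of log2 -0.21 (SE 0.18, adjusted p = 0.491) was not called. Replicate 2 of the 1 h controls was the highest of all 18 arrays, and the control call was lost without replicate 2 or 3 of the 1 h controls or replicate 2 of the 6 h controls (adjusted p from 0.0632 to 0.112). HIF1AN was the only gene whose aminaphtone arrays lay above all controls at 6 h, by log2 0.27 (SE 0.18, adjusted p = 1), which is not called.

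Of 6 genes of collagen modification and secretion tested, ERO1A among them, P4HA1 and P4HA2 rose and none fell in the controls between 3 and 6 h. Over all rows 0.314% rose and 0.146% fell there. Between 1 and 6 h 4 of the 6 were higher and 1 lower in the controls, against 10% and 13.7% of all rows. All 6 had a negative log2 difference with aminaphtone at 6 h (median -0.42, against -0.02 over all rows), none called. P4HA1 is a catalytic α subunit of collagen prolyl 4-hydroxylase, a known HIF target needed for a stable collagen triple helix. P4HA1 read 8.25, 7.43 and 7.49 at 1 h, 7.98, 8.09 and 8.18 at 3 h, and 9.46, 9.19 and 9.45 at 6 h in the control arrays. With aminaphtone P4HA1 read 8.52, 8.32 and 8.32 at 1 h, 7.88, 7.92 and 8.36 at 3 h, and 8.35, 8.43 and 8.56 at 6 h. The 6 h controls stood above all other arrays, and the aminaphtone arrays at 6 h overlapped those at 1 h. The difference between 3 and 6 h was log2 1.28 (SE 0.18, adjusted p = 0.00355) in the controls, 2.43-fold, and log2 0.39 (SE 0.18, adjusted p = 0.518) with aminaphtone. Between the arms P4HA1 differed by log2 0.66 (SE 0.18, adjusted p = 0.145) at 1 h, log2 -0.03 (SE 0.18, adjusted p = 0.979) at 3 h and log2 -0.92 (SE 0.18, adjusted p = 0.0642) at 6 h. At 6 h it passed in the fit of the 6 arrays compared (adjusted p = 0.0104), which called 5 genes against 0.342% of all rows.

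P4HA2, the second α subunit, moved at the same time. P4HA2 read 8.92, 9.15 and 9.11 at 1 h, 9.06, 9.26 and 9.37 at 3 h, and 10.23, 9.93 and 10.12 at 6 h in the control arrays. With aminaphtone P4HA2 read 8.81, 8.97 and 8.92 at 1 h, 9.36, 9.19 and 9.15 at 3 h, and 9.67, 9.42 and 9.48 at 6 h. The 6 h controls were again above every other array. The control difference was log2 0.86 (SE 0.12, adjusted p = 0.00248) between 3 and 6 h, and all 18 fits leaving out 1 array called it, as they did for P4HA1 and HILPDA. With aminaphtone the difference between 1 and 6 h was log2 0.62 (SE 0.12, adjusted p = 0.00146), and at 6 h the arms differed by log2 -0.57 (SE 0.12, adjusted p = 0.0828). P4HB, the β subunit of the same enzyme and an abundant protein disulfide isomerase, was not called on either of its 2 rows, and its first row read between 11.99 and 12.54 in all arrays.

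The lysyl hydroxylases, which prepare collagen for cross-linking, went in opposite directions in the controls. PLOD2, a known HIF target, rose in the controls. PLOD2 read 9.36, 8.28 and 8.09 at 1 h, 9.22, 8.99 and 8.96 at 3 h, and 9.55, 9.24 and 9.80 at 6 h in the control arrays. With aminaphtone PLOD2 read 9.42, 9.03 and 9.12 at 1 h, 8.48, 8.62 and 9.12 at 3 h, and 8.28, 8.89 and 9.01 at 6 h. The 1 h controls spanned 8.09 to 9.36 and overlapped the 6 h controls, with a difference of log2 0.95 (SE 0.27, adjusted p = 0.0178). That call was lost without replicate 2 or 3 of the 1 h controls or replicate 1 or 3 of the 6 h controls (adjusted p from 0.0503 to 0.0976), and at 6 h the arms differed by log2 -0.81 (SE 0.27, adjusted p = 0.817). With aminaphtone PLOD2 differed by log2 -0.46 (SE 0.27, adjusted p = 0.293) between 1 and 6 h, with no overlap of the groups and no call. PLOD1 fell in both arms. PLOD1 read 9.80, 10.66 and 10.34 at 1 h, 9.43, 10.09 and 9.78 at 3 h, and 9.42, 9.52 and 9.40 at 6 h in the control arrays. With aminaphtone PLOD1 read 9.79, 9.90 and 10.09 at 1 h, 9.81, 10.00 and 9.50 at 3 h, and 9.34, 9.34 and 9.19 at 6 h. The 6 h arrays lay below the 1 h arrays in each arm, a difference of log2 -0.82 (SE 0.19, adjusted p = 0.00587) in the controls and log2 -0.64 (SE 0.19, adjusted p = 0.0323) with aminaphtone, the latter lost without replicate 1, 2 or 3 of the 1 h aminaphtone arrays or replicate 1, 2 or 3 of the 6 h aminaphtone arrays (adjusted p from 0.0547 to 0.123).

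ERO1A, which reoxidises protein disulfide isomerase in the secretory pathway, rose in the controls. ERO1A read 9.99, 8.27 and 9.16 at 1 h, 10.27, 9.40 and 10.00 at 3 h, and 10.56, 10.39 and 10.67 at 6 h in the control arrays. With aminaphtone ERO1A read 10.07, 9.90 and 9.89 at 1 h, 9.79, 9.74 and 10.16 at 3 h, and 10.20, 10.31 and 10.33 at 6 h. Replicate 2 of the 1 h controls, at 8.27, was the lowest array, while all 6 h controls exceeded all other arrays. The control difference between 1 and 6 h was log2 1.40 (SE 0.29, adjusted p = 0.00286), and without that replicate it was 0.97, still called, while the fit of only the arrays compared gave an adjusted p of 0.0623. With aminaphtone the same difference was log2 0.32 (SE 0.29, adjusted p = 0.514). At 1 h the arms differed by log2 0.81 (SE 0.29, adjusted p = 0.148), which passed with the replicate block (adjusted p = 0.0483), and at 6 h by log2 -0.26 (SE 0.29, adjusted p = 1).

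**Figure D4:**
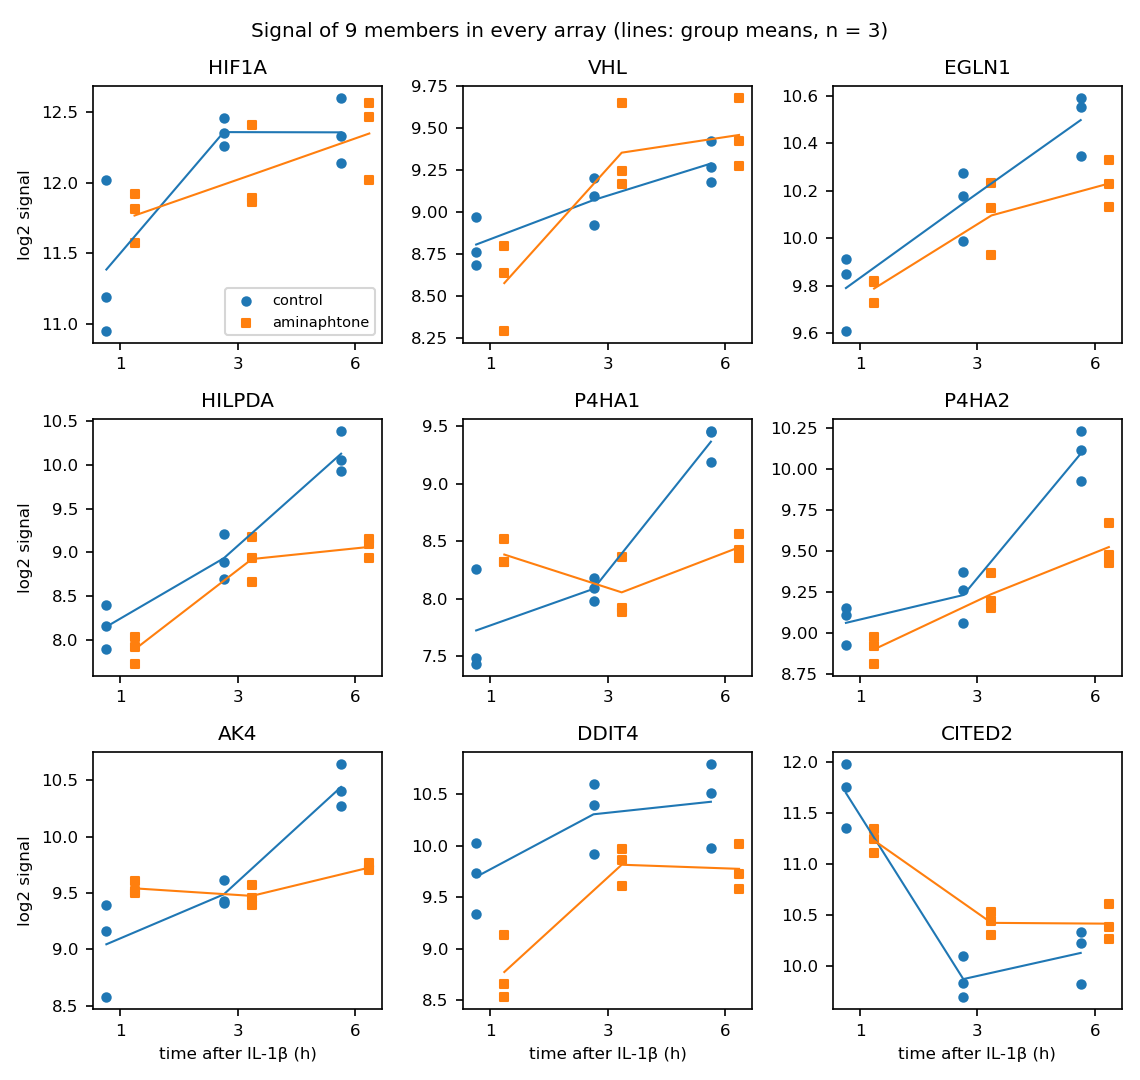
Log2 signal (y axis, scaled per gene) of 9 genes in every array at 1, 3 and 6 h after IL-1β (x axis), with circles for control, squares for aminaphtone and lines through the group means of 3 arrays. For HILPDA, P4HA1, P4HA2 and AK4 the 3 control arrays at 6 h lie above all 3 aminaphtone arrays, and for HIF1A and VHL the arms overlap at 6 h.

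Of 9 chromatin and transcription genes tested, 3 fell and none rose in the controls between 1 and 3 h (CITED2, BHLHE40 and ZNF395), against 7.07% of all rows lower. With aminaphtone 3 fell (CITED2, BHLHE40 and KDM3A), against 4.92%. CITED2, itself HIF-inducible, binds the same domain of CBP and p300 as HIF and so limits HIF activity. CITED2 read 11.76, 11.98 and 11.36 at 1 h, 9.69, 9.83 and 10.09 at 3 h, and 10.33, 10.22 and 9.83 at 6 h in the control arrays. With aminaphtone CITED2 read 11.34, 11.25 and 11.11 at 1 h, 10.53, 10.30 and 10.44 at 3 h, and 10.60, 10.38 and 10.26 at 6 h. The 1 h arrays of each arm lay above all later arrays of that arm. The fall between 1 and 3 h was 3.55-fold in the controls (log2 -1.83, SE 0.16, adjusted p = 2.86e-06) and 1.75-fold with aminaphtone (log2 -0.81, SE 0.16, adjusted p = 0.00453). The aminaphtone arrays lay below the controls at 1 h (log2 -0.47, SE 0.16, adjusted p = 0.148) and above them at 3 h (log2 0.55, SE 0.16, adjusted p = 0.444). Treatment by time gave an unadjusted p of 0.00122 and an adjusted p of 0.495.

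BHLHE40, a transcriptional repressor of the circadian and hypoxia programmes, fell in both arms. BHLHE40 read 12.62, 12.49 and 12.59 at 1 h, 11.79, 11.89 and 11.90 at 3 h, and 11.78, 11.65 and 11.76 at 6 h in the control arrays. With aminaphtone BHLHE40 read 12.60, 12.49 and 12.69 at 1 h, 11.87, 11.95 and 11.72 at 3 h, and 11.73, 11.64 and 11.56 at 6 h. No 3 h or 6 h array reached the lowest 1 h array. The difference between 1 and 6 h was log2 -0.84 (SE 0.10, adjusted p = 1.84e-05) in the controls and log2 -0.95 (SE 0.10, adjusted p = 6.18e-06) with aminaphtone, and the arms differed at 6 h by log2 -0.08 (SE 0.10, adjusted p = 1). Its paralogue BHLHE41 was not called, and all its arrays read between 7.31 and 8.27.

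KDM3A, a histone H3 lysine 9 demethylase and known HIF target, had its lowest group mean of each arm at 3 h. KDM3A read 8.92, 7.45 and 7.98 at 1 h, 7.94, 7.72 and 8.10 at 3 h, and 9.04, 8.99 and 9.31 at 6 h in the control arrays. With aminaphtone KDM3A read 8.80, 8.64 and 8.50 at 1 h, 7.52, 7.32 and 8.23 at 3 h, and 8.31, 8.46 and 8.55 at 6 h. The 6 h controls were above all other arrays, and the lowest readings were at 3 h with aminaphtone and in replicate 2 of the 1 h controls. In the controls it rose between 1 and 6 h (log2 1.00, SE 0.28, adjusted p = 0.0145), and between 3 and 6 h it differed by log2 1.19 (adjusted p = 0.0665), which passed in the fit of only the arrays compared (adjusted p = 0.00423). With aminaphtone it fell between 1 and 3 h (log2 -0.95, SE 0.28, adjusted p = 0.0366), and at 6 h the arms differed by log2 -0.67 (SE 0.28, adjusted p = 1). The 1 to 6 h control call was lost without replicate 2 or 3 of the 1 h controls or replicate 3 of the 6 h controls (adjusted p from 0.0514 to 0.0794), and without replicate 2 of the 1 h controls the difference was 0.66. The fall with aminaphtone was lost without replicate 1, 2 or 3 of the 1 h aminaphtone arrays, replicate 1 or 2 of the 3 h aminaphtone arrays or replicate 2 of the 6 h aminaphtone arrays (adjusted p from 0.0503 to 0.166). The demethylases KDM4B and KDM4C and the hydroxylase JMJD6 were not called. For JMJD6 the aminaphtone arrays lay below the controls without overlap at 1 h (log2 -0.41, SE 0.14, adjusted p = 0.148) and at 6 h (log2 -0.37, SE 0.14, adjusted p = 0.976).

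MXI1, a MYC antagonist, fell in the controls between 1 and 6 h (log2 -0.41, SE 0.13, adjusted p = 0.0313), a call lost without replicate 1 or 3 of the 1 h controls or replicate 2 or 3 of the 6 h controls (adjusted p from 0.0659 to 0.122). ZNF395, a zinc finger factor, fell in both arms over the same span (log2 -0.41, SE 0.12, adjusted p = 0.0233 in the controls and log2 -0.38 (SE 0.12, adjusted p = 0.0457) with aminaphtone). The ZNF395 call in the controls was lost without replicate 2 or 3 of the 1 h controls or replicate 1, 2 or 3 of the 6 h controls (adjusted p from 0.0537 to 0.107), and the one with aminaphtone was lost in 13 of 18 fits that left out 1 array, with the highest adjusted p, 0.213, without replicate 2 of the 6 h aminaphtone arrays. RORA, a nuclear receptor, had group means between 5.07 and 5.45 and was not tested.

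Among the genes of lipid, glycogen and nucleotide handling, HILPDA had the widest range of group means of all 36 genes tested. HILPDA blocks triglyceride lipolysis and is a known HIF target. HILPDA read 7.90, 8.39 and 8.15 at 1 h, 8.89, 8.70 and 9.21 at 3 h, and 10.39, 9.94 and 10.06 at 6 h in the control arrays. With aminaphtone HILPDA read 7.92, 7.72 and 8.03 at 1 h, 9.17, 8.66 and 8.94 at 3 h, and 9.15, 8.94 and 9.10 at 6 h. The arms overlapped at 1 and 3 h, and at 6 h the controls lay above all aminaphtone arrays. In the controls HILPDA rose between 1 and 3 h (log2 0.78, SE 0.17, adjusted p = 0.00624) and again between 3 and 6 h (log2 1.20, SE 0.17, adjusted p = 0.00355). With aminaphtone it rose between 1 and 3 h (log2 1.04, SE 0.17, adjusted p = 0.000773) and differed by log2 0.14 (SE 0.17, adjusted p = 0.907) between 3 and 6 h. Treatment by time gave an unadjusted p of 0.000971 and an adjusted p of 0.469.

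PPP1R3C, which brings protein phosphatase 1 to glycogen, rose in both arms. PPP1R3C read 8.39, 7.17 and 8.33 at 1 h, 9.04, 9.08 and 9.32 at 3 h, and 9.67, 9.54 and 10.09 at 6 h in the control arrays. With aminaphtone PPP1R3C read 7.85, 7.90 and 8.32 at 1 h, 8.54, 8.26 and 8.79 at 3 h, and 8.83, 8.78 and 8.83 at 6 h. The control arrays at 3 h and at 6 h exceeded the 1 h arrays, and at both times they lay above the aminaphtone arrays without overlap. The 1 to 6 h difference was log2 1.80 (SE 0.25, adjusted p = 0.000115) in the controls and log2 0.79 (SE 0.25, adjusted p = 0.0417) with aminaphtone. The latter was lost in 9 of 18 fits that left out 1 array, with the highest adjusted p, 0.154, without replicate 1 of the 1 h aminaphtone arrays. The arms differed by log2 -0.62 (SE 0.25, adjusted p = 0.665) at 3 h and log2 -0.95 (SE 0.25, adjusted p = 0.402) at 6 h. In the fit of only the arrays compared the 6 h difference passed (adjusted p = 0.0244), while the control rise between 1 and 3 h did not (adjusted p = 0.128).

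Of the enzymes that build glycogen, GBE1, the branching enzyme, fell with aminaphtone between 1 and 6 h. GBE1 read 9.21, 7.82 and 8.53 at 1 h, 8.82, 8.70 and 8.75 at 3 h, and 8.66, 8.74 and 8.86 at 6 h in the control arrays. With aminaphtone GBE1 read 9.31, 9.15 and 9.17 at 1 h, 8.82, 8.65 and 9.06 at 3 h, and 8.36, 8.51 and 8.56 at 6 h. The 1 h aminaphtone arrays lay above all later aminaphtone arrays, and the change to 6 h was log2 -0.73 (SE 0.22, adjusted p = 0.0343). The controls differed by log2 0.23 (SE 0.22, adjusted p = 0.522), which was 0.58 and called without replicate 1 of the 1 h controls (adjusted p = 0.00961) and -0.12 without replicate 2 (adjusted p = 0.680). The fall with aminaphtone was lost without replicate 1, 2 or 3 of the 1 h aminaphtone arrays or replicate 1, 2 or 3 of the 6 h aminaphtone arrays (adjusted p from 0.067 to 0.12). At 1 h the arms differed by log2 0.69 (SE 0.22, adjusted p = 0.148), which passed with the replicate block (adjusted p = 0.0422). GYS1, glycogen synthase of muscle and other tissues, was not called, with a difference of log2 0.67 (SE 0.18, adjusted p = 0.135) between 3 and 6 h in the controls and log2 -0.53 (SE 0.18, adjusted p = 0.817) between the arms at 6 h.

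AK4, a mitochondrial adenylate kinase and known HIF target, rose in the controls after 3 h on its brighter row. AK4 read 9.40, 8.57 and 9.16 at 1 h, 9.41, 9.43 and 9.62 at 3 h, and 10.41, 10.27 and 10.64 at 6 h in the control arrays. With aminaphtone AK4 read 9.60, 9.52 and 9.50 at 1 h, 9.39, 9.46 and 9.57 at 3 h, and 9.71, 9.70 and 9.76 at 6 h. The 6 h controls exceeded all other arrays, and at 1 h the aminaphtone arrays exceeded the controls. The 3 to 6 h difference in the controls was log2 0.95 (SE 0.16, adjusted p = 0.0105), lost without replicate 2 of the 3 h controls or replicate 1 or 3 of the 6 h controls (adjusted p from 0.0672 to 0.0875), and with aminaphtone it was log2 0.25 (SE 0.16, adjusted p = 0.735). The arms differed by log2 0.50 (SE 0.16, adjusted p = 0.148) at 1 h and log2 -0.72 (SE 0.16, adjusted p = 0.154) at 6 h. The second AK4 row did not pass, with 0.36 between 3 and 6 h (adjusted p = 0.475) and 0.33 between 1 and 6 h (adjusted p = 0.151) in the controls. Both rows are annotated to AK4, and RefSeq also lists pseudogenes of AK4, so its values are uncertain.

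ANGPTL4, a secreted inhibitor of lipoprotein lipase, fell with aminaphtone between 3 and 6 h. ANGPTL4 read 9.17, 10.02 and 9.76 at 1 h, 9.10, 10.61 and 9.69 at 3 h, and 9.05, 8.77 and 8.89 at 6 h in the control arrays. With aminaphtone ANGPTL4 read 9.19, 9.28 and 9.58 at 1 h, 9.91, 10.79 and 9.67 at 3 h, and 8.49, 8.26 and 8.53 at 6 h. Replicate 2 was the highest array of each arm at 3 h, and the 6 h aminaphtone arrays were the lowest of all 18. The fall of log2 -1.70 (SE 0.32, adjusted p = 0.0369) was lost in 13 of 18 fits that left out 1 array, with the highest adjusted p, 0.341, without replicate 2 of the 3 h aminaphtone arrays. The controls differed by log2 -0.90 (SE 0.32, adjusted p = 0.312) over the same interval, and treatment by time gave an adjusted p of 0.677. CA12, a membrane carbonic anhydrase, fell in the controls between 1 and 6 h (log2 -0.46, SE 0.16, adjusted p = 0.0448), a call lost in 12 of 18 fits that left out 1 array, with the highest adjusted p, 0.156, without replicate 1 of the 6 h controls.

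Of the growth and stress genes, 3 of 5 rose and none fell in the controls between 1 and 6 h, against 10% of all rows higher and 13.7% lower. DDIT4 (REDD1) restrains mTORC1 when oxygen or energy is short. DDIT4 read 9.33, 9.73 and 10.02 at 1 h, 9.92, 10.60 and 10.39 at 3 h, and 10.79, 9.98 and 10.51 at 6 h in the control arrays. With aminaphtone DDIT4 read 8.53, 8.66 and 9.13 at 1 h, 9.86, 9.97 and 9.61 at 3 h, and 10.02, 9.57 and 9.73 at 6 h. The aminaphtone arrays at 1 h were the 3 lowest of all 18, and the arms overlapped at 3 and 6 h. The arms differed by log2 -0.92 (SE 0.23, adjusted p = 0.129) at 1 h, log2 -0.49 (SE 0.23, adjusted p = 0.782) at 3 h and log2 -0.65 (SE 0.23, adjusted p = 0.932) at 6 h. DDIT4 rose between 1 and 3 h with aminaphtone (log2 1.04, SE 0.23, adjusted p = 0.00793), lost without replicate 1 of the 1 h aminaphtone arrays (adjusted p = 0.0555). Between 1 and 6 h it rose by log2 0.73 (SE 0.23, adjusted p = 0.0297) in the controls, whose groups overlap, and by log2 1.00 (SE 0.23, adjusted p = 0.00633) with aminaphtone. Its control call was lost without replicate 1 or 2 of the 1 h controls or replicate 1 or 3 of the 6 h controls (adjusted p from 0.0571 to 0.143).

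WSB1, a ubiquitin ligase adaptor whose targets include VHL, rose in the controls. WSB1 read 10.71, 8.59 and 10.10 at 1 h, 10.32, 9.74 and 10.23 at 3 h, and 10.96, 10.68 and 11.33 at 6 h in the control arrays. With aminaphtone WSB1 read 10.64, 10.41 and 10.57 at 1 h, 10.39, 10.26 and 10.71 at 3 h, and 10.70, 10.73 and 10.89 at 6 h. Replicate 2 of the 1 h controls read 8.59, more than 1 below every other array, and the 1 h and 6 h controls overlapped. The difference was log2 1.19 (SE 0.35, adjusted p = 0.0204) in the controls and log2 0.23 (SE 0.35, adjusted p = 0.705) with aminaphtone. The control call was lost without replicate 2 of the 1 h controls or replicate 1 or 3 of the 6 h controls (adjusted p from 0.051 to 0.0964), and without replicate 2 of the 1 h controls the difference was 0.59. FAM162A, a mitochondrial protein tied to hypoxic cell death, rose in the controls (log2 0.37, SE 0.11, adjusted p = 0.0236) and differed by log2 -0.33 (SE 0.11, adjusted p = 0.0505) with aminaphtone. The FAM162A control call was lost without replicate 2 or 3 of the 1 h controls or replicate 1 or 3 of the 6 h controls (adjusted p from 0.0567 to 0.0813), and the arms differed by log2 -0.44 (SE 0.11, adjusted p = 0.375) at 6 h. NDRG1, a stress-responsive differentiation gene, and RRAGD, a Rag GTPase of the mTORC1 pathway, were not called.

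The remaining 3 genes moved in both directions in the controls between 1 and 6 h. ANKRD37, an ankyrin repeat protein and known HIF target, rose by log2 0.60 (SE 0.12, adjusted p = 0.00193), against log2 0.22 (SE 0.12, adjusted p = 0.246) with aminaphtone. TMEM45A, a transmembrane protein, changed by log2 -0.62 (SE 0.13, adjusted p = 0.00253) in the controls and log2 -0.48 (SE 0.13, adjusted p = 0.0164) with aminaphtone, at a mean log2 signal of 5.67, close to the filter on dim rows. Its call with aminaphtone was lost without replicate 1 or 3 of the 1 h aminaphtone arrays or replicate 2 of the 6 h aminaphtone arrays (adjusted p from 0.0607 to 0.0937). NARF, a nuclear protein that binds prelamin A, fell in the controls. NARF read 9.12, 9.73 and 9.48 at 1 h, 8.12, 9.0 and 8.51 at 3 h, and 8.82, 8.52 and 8.43 at 6 h in the control arrays. With aminaphtone NARF read 9.07, 9.13 and 9.06 at 1 h, 8.61, 9.02 and 8.44 at 3 h, and 8.65, 8.38 and 8.44 at 6 h. All 1 h arrays of each arm exceeded the 6 h arrays of that arm, and the change from 1 to 6 h was log2 -0.86 (SE 0.20, adjusted p = 0.00576) in the controls and log2 -0.60 (SE 0.20, adjusted p = 0.0537) with aminaphtone, the latter not called. The control fall between 1 and 3 h was log2 -0.90 (SE 0.20, adjusted p = 0.00768), lost without replicate 1 of the 3 h controls (adjusted p = 0.0556). Of the 36 genes, 26 were called in at least 1 comparison, in each case one between times, and 10 in none. The share of all rows called in at least 1 comparison was not counted, so 26 of 36 has no background beside it. In the controls between 1 and 6 h alone, 10% of all rows were called higher and 13.7% lower.

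Other genes of the pathway were read from 3 lists, which were chosen with earlier results of these data known. Of 15 partners and turnover factors of HIF, all tested, none was called between the arms at any time, in the mean of times or in treatment by time. In the controls between 1 and 6 h, 3 of them rose (the elongin ELOC at 0.48 and the chaperones HSP90AA1 at 0.54 and HSP90AB1 at 0.51) and OS9 fell (log2 difference -0.40). Over all rows 10% were higher and 13.7% lower in that comparison. Of 23 genes of glucose uptake and glycolysis, 21 were tested, and at 6 h 4 were lower with aminaphtone and none higher: PFKFB4, HK2, PDK1 and ENO2, at -1.42, -1.17, -1.24 and -1.21. The same 4 rose in the controls between 3 and 6 h. Over all rows 0.101% were lower with aminaphtone at 6 h, and 0.314% rose in the controls between 3 and 6 h. Of 21 other HIF targets, 20 were tested, and at 6 h 3 were lower with aminaphtone and none higher: BNIP3, a mitophagy receptor, at -1.34, STC2, a secreted glycoprotein, at -0.95, and EDN1, the endothelin 1 precursor, at -0.98. STC2 and BNIP3 rose in the controls between 3 and 6 h. The 6 h controls enter both of these comparisons, so a high reading in those arrays moves both, for these genes and for the 4 glycolysis genes.

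The median 6 h difference between the arms was -0.26 over the 21 glycolysis genes, -0.42 over the 20 other targets and -0.01 over the 15 partners and turnover factors, beside -0.23 over the 36 genes described here and -0.02 over all rows. Because the genes and lists were chosen with earlier results of these data known, these medians are not independent of that choice, whose part was not tested. In the mean of times 4 glycolysis genes (PFKFB4, HK2, SLC2A1 and ENO2) and 4 other targets (EDN1, BNIP3, HMOX1 and LOX) were lower, and none was higher. Over all rows 0.364% were lower and 0.386% higher there. Treatment by time called BNIP3 (adjusted p = 0.00444) and PFKFB4 (adjusted p = 0.0256). VEGFA, the angiogenic factor, rose in the controls between 1 and 3 h (0.70, adjusted p = 0.0214).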

How the data were processed

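The authors deposited 1 log2 value per transcript cluster and array, summarised by RMA in Affymetrix Expression Console, per the submitters' processing notes. The versions, the genome build and which arrays were normalised together are not given in the sources used here. Of 28869 rows, 21062 have a gene annotation, 19310 with 1 symbol. Annotated rows with a mean above the 25th percentile of all rows (5.52) were tested, 17853 in all. Group means of the 6 groups were estimated together from the 18 arrays with limma 3.58.1 under R 4.3.3, leaving 12 residual degrees of freedom, with Benjamini-Hochberg adjustment, a threshold of 0.05 and two-sided tests. The precision is limited by the number of arrays. The calculation was tested on simulated data with independent noise and, for each gene, the same spread in every group. That setting leaves out the wider spread of the 1 h controls, so it cannot speak for calls that use them.

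The genes and lists were chosen with earlier results of these data known. Values per array are given for the oxygen sensors, for genes called in a treatment comparison and for the 14 others with the widest range of group means. From each list, up to 4 called genes are named per comparison. The HSP90 paralogues share sequence, so their rows are uncertain.

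Replicate numbers were checked as pairs by correlating array deviations from group means. Arrays of equal number correlated at 0.726, 0.406 and 0.292 between treated and control at 1 h, and at 0.268, 0.327 and 0.239 between controls at 1 and 3 h, so both sets were taken as pairs, a link that comes from the data and not from the labels. No other set of groups had all 3 correlations above 0.1. Alternatives were no filter, a stricter filter (50th percentile), centring on array medians, trended and robust variances, the mean of a gene's rows, the replicate block, a fit of the arrays compared alone, each array left out, and the 25th percentile of annotated rows as the filter, which was chosen after seeing the data.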

Additional observations from a re-analysis of the deposited data

Results flagged for a closer look

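The difference between aminaphtone and control differed between times for 2 genes of the comparison lists, by limma's treatment by time test. For BNIP3 the adjusted p was 0.00444, with log2 differences of 0.15 at 1 h, -0.16 at 3 h and -1.34 at 6 h. For PFKFB4 the adjusted p was 0.0256, with log2 differences of -0.08, 0.06 and -1.42. None of the 36 hypoxia genes passed the same test.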

How the results depend on the processing

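No gene changed direction under any alternative among the calls reported. The filters and the mean of a gene's rows kept every count within 1.5 times. With the replicate block, the genes called numbered 7 at 1 h (0 without it), 2 at 6 h (1 without), 4 over the mean of times (2 without), 1 in treatment by time (0 without) and 2 with aminaphtone between 3 and 6 h (1 without), and all other counts stayed within 1.5 times. Over all rows the block moved the share called from 0.084% to 12.4% at 1 h. At 6 h the share moved from 0.101% to 0.157%, and over the mean of times from 0.751% to 4.3%. Between 3 and 6 h with aminaphtone the calls over all rows moved from 42 to 40. For treatment by time the share of all rows with the block is not given here. Equal numbers were borne out as pairs at 1 h and between the 1 and 3 h controls alone. The block for the time comparisons covers all 6 groups. The block for the treatment comparisons covers 1, 3 and 6 h and takes 1 spread per gene from all of them, with 6 residual degrees of freedom. Every block count, that at 1 h included, thus rests in part on numbers whose arrays did not all deviate together. Centring each array on its median left 1 gene over the mean of times and 0 with aminaphtone between 3 and 6 h, and trended and robust variances left 1 over the mean of times. Fitting only the arrays compared called 5 at 6 h, 1 in the controls between 1 and 3 h (of 7), 10 between 1 and 6 h (of 24) and 21 with aminaphtone between 1 and 6 h (of 12 in the full fit). Leaving out 1 array at a time gave 0 to 18 at 1 h, 0 to 4 at 6 h, 0 to 10 over the mean of times and 0 to 12 in treatment by time. In the controls it gave 5 to 18 between 1 and 3 h, 3 to 9 between 3 and 6 h and 15 to 25 between 1 and 6 h. With aminaphtone it gave 4 to 7, 0 to 2 and 6 to 18 over the same intervals. The highest counts at 1 h, over the mean of times, in treatment by time and in the controls between 1 and 3 h all came without replicate 1 of the 1 h controls, and the 15 in the controls between 1 and 6 h without replicate 3 of the 6 h controls. The cause of these shifts was not tested. Without replicate 1 of the 1 h controls, 48.2% of all rows were called at 1 h and 19.1% over the mean of times. The ranges themselves are given without the share of all rows, so they describe the fits and nothing particular to these genes. At 3 h the count was 0 in every fit. Dim rows limit RORA and TMEM45A, whose means of 5.33 and 5.67 lie near the filter.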
